A study of Homo sapiens with 10 samples.

Results

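K562 cells, a human chronic myeloid leukemia line, were exposed for 2 h to 1 µM AZ-5576, an inhibitor of the kinase CDK9, or to DMSO, the solvent control. All cells received 100 µM 4-thiouridine in the last 1 h, so the controls also carried the label. Cells build 4-thiouridine into RNA as they make it, and after chemical treatment it gives T-to-C changes in reads, so a labelled count is a read of RNA made in the label hour, and a total count is any read of the gene. The comparison used the 2 AZ5576 libraries and the 2 DMSO libraries of 10 in the series, and all 59204 human genes in the tables were members. The other libraries came from actinomycin D (ActD, 1 µg/mL), which blocks transcription by binding DNA, and from 1 µM JQ1 or 1 µM A-485. ActD served here as the background of the conversion calls, and every drug shared the same DMSO libraries. K562 is 1 established line, and the labels do not say whether the libraries of a group came from separate cultures, so p-values measure the spread between these samples only, which may be technical.

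CDK9 pairs with cyclin T1 or cyclin T2 to form the elongation factor P-TEFb. RNA polymerase II pauses shortly after it starts, held by the factors DSIF and NELF, and P-TEFb releases it by phosphorylating these factors and the polymerase. A pool of P-TEFb is kept inactive by the noncoding 7SK RNA with HEXIM1, HEXIM2, LARP7 and MEPCE. Mitochondria use their own polymerase, and RNA polymerase III makes its own set of small RNAs.

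The promoters of 5 genes are shown as examples of different responses. CITED2 and HES1, both transcriptional regulators, were among the RNAs that fell most, HEXIM1, the P-TEFb inhibitor, fell less, and CUX1 and PRKCB kept their label. Each sequence runs from 100 bases before to 30 bases after the RefSeq start on GRCh38.p14, 5′ to 3′ on the strand of the gene. The windows are chr6:139374619-139374748 (minus strand) for CITED2, chr3:194136048-194136177 (plus) for HES1, chr17:45148375-45148504 (plus) for HEXIM1, chr7:101815907-101816036 (plus) for CUX1 and chr16:23835883-23836012 (plus) for PRKCB. Capitals mark matches on either strand to the TATA-box letters TATAAA, the CCAAT box (CCAAT) or the GC box (GGGCGG, which reads CCGCCC on the other strand), and neighbouring GC-box matches can overlap.
CITED2: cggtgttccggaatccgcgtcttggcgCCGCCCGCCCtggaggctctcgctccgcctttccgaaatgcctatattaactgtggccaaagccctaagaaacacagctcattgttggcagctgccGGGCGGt
HES1: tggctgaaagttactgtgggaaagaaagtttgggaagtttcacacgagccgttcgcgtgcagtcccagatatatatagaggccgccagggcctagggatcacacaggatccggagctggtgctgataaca
HEXIM1: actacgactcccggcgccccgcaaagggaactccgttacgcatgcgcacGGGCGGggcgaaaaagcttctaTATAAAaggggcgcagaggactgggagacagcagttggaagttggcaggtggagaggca
CUX1: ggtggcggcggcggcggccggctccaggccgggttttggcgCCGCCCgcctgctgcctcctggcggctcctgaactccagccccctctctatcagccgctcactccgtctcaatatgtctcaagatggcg
PRKCB: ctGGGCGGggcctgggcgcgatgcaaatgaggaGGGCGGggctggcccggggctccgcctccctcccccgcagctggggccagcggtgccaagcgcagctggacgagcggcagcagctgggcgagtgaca
CITED2 held 3 GC-box matches, PRKCB 2, and HEXIM1 and CUX1 1 each, and of these 5 windows that of HEXIM1 had the TATAAA match. Among 27305 RefSeq promoter windows of 300 bases, 12% held TATAAA, 35.7% CCAAT and 44.6% GGGCGG.

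Labelled counts totalled 448401 and 434411 in the DMSO libraries and 53503 and 62513 in the AZ5576 libraries, against 1410 and 1614 with ActD. In the 4 libraries compared there were 14916671 to 17732216 total human counts, and the spike-in gave 1817677 to 2059736. Counts below are as deposited, and percentages and folds are after scaling to the spike-in, which was added to purified RNA and so gives levels per amount of RNA, not per cell. Fewer cells and less RNA per cell cannot be told apart in such bulk samples. All 10 K562 markers had counts, TFRC for example 3615 and 4171 total counts in DMSO. Of 15 markers of other lineages, 10 reached the counts needed for a test in total RNA, DCN alone was called higher, and MS4A1 and KRT5 were at 0 in all 10 libraries.

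AZ-5576 lowered new RNA of nearly every gene that could be tested, whereas most total RNA levels had not passed the test after 2 h. In labelled RNA, 7574 of 7996 genes were lower (94.7%) and 16 were higher (0.200%) by edgeR's quasi-likelihood test at a Benjamini-Hochberg adjusted p under 0.05. In total RNA, 1878 of 14572 genes were lower (12.9%) and 114 higher (0.782%). Of the 1676 genes lower in total RNA that were also tested in labelled RNA, 1669 were lower there too. The counts in total RNA rested on all 4 libraries: without DMSO replicate 2 there were 903 lower genes and 65 higher, without AZ5576 replicate 1 there were 1036 and 68, without AZ5576 replicate 2 there were 1304 and 48, and without DMSO replicate 1 there were 1626 and 44. The 16 labelled rises became 7 without AZ5576 replicate 1 and 5 without AZ5576 replicate 2.

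The scale mattered most for labelled RNA. TMM, a scaling that takes most human genes as unchanged, moved the median log2 change over the genes tested from -5.94 to -3.05 in labelled RNA and from -0.15 to 0.0017 in total RNA. The median shift of a single gene was 3.31 in labelled and 0.15 in total RNA. On that scale 2084 genes were lower (26.1% of those tested) in labelled RNA and 6.07% were higher, and 1210 lower (8.30%) and 546 higher (3.75%) in total RNA. Values below are on the spike-in scale unless TMM is named.

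The number of detected nascent RNAs shrank with the counts. A labelled count was present for 12945 and 12974 genes in the DMSO libraries, for 4036 and 4362 in the AZ5576 libraries and for 544 and 489 in the ActD libraries. Many well-labelled mRNAs had no labelled read at all with AZ-5576. TOMM5, a subunit of the mitochondrial import channel, had 404 and 398 labelled counts in DMSO and none in either AZ5576 library, a level at least 280-fold lower when the AZ5576 group is set at a floor of 3 counts. PEBP1, a kinase inhibitor protein, had 290 and 233 against none, at least 182-fold lower. For TIMM23, a core subunit of the inner membrane import channel, 266 and 240 counts became 0 and 0, at least 176-fold lower. The AZ5576 libraries lay below the DMSO libraries without overlap in all these cases. ATP5PO, a subunit of ATP synthase, went from 200 and 187 to 0 and 0, at least 135-fold lower, and CCDC86 from 200 and 232 to 0 and 0, at least 151-fold lower.

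The totals of these 5 genes did not pass the test on the spike-in scale. TOMM5 had 9507 and 10178 total counts in DMSO and 9559 and 11303 with AZ-5576, a log2 difference of 0.01 ± 0.10 (SE; edgeR adjusted p = 0.96). PEBP1 had 15708 and 16918 against 15597 and 18611, and CCDC86 7856 and 8562 against 7642 and 9044, and in each the groups overlapped. ATP5PO had 20806 and 23007 against 21972 and 26558 total counts, also overlapping, and was called higher on the TMM scale (edgeR adjusted p = 0.038). TIMM23 lay near the threshold, at 3182 and 3277 total counts against 2455 and 3093, with no overlap (log2 -0.29 ± 0.10, edgeR adjusted p = 0.053). It was called lower with scaling to the human total (0.017), with at least 30 counts (0.048) and by DESeq2 with spike-in size factors (0.038), but not with TMM (0.25). Labelled reads were 4.08% of TOMM5 reads in DMSO, 1.61% of PEBP1 reads and 2.63% of CCDC86 reads.

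Nuclear genes over 200 kb kept the largest percent of their DMSO label at the median. Of all labelled counts in the AZ5576 libraries, 56.6% and 53.9% came from mitochondrial genes and their nuclear copies. Among 4845 nuclear genes with an average of at least 20 labelled counts per DMSO library, the median gene under 10 kb kept 1.65% of its DMSO label (1139 genes). The medians were 1.34% at 10 to 30 kb (1434 genes), 1.36% at 30 to 100 kb (1569), 4.79% at 100 to 200 kb (511) and 16.6% over 200 kb (192). The replicates gave 11.7% and 21% for the longest genes. For genes of 100 to 200 kb they gave 3.57% and 3.87%, and for each class under 100 kb the 2 replicate medians were under 1%, so leaving out 1 AZ5576 library moves those low medians by more than 1.5 times. ActD had a median of 0 in every class.

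The longest genes also varied most among themselves. Over 200 kb, the middle 50% of genes kept between 4.56% and 42.7%, and 45 of 192 (23.4%) kept at least 50%, against 11 of 1139 (0.966%) under 10 kb and 3 of 1434 (0.209%) at 10 to 30 kb. No labelled read was seen in either AZ5576 library for 35.1% of genes under 10 kb and for 9.38% over 200 kb. The test called 99.0% of genes under 10 kb lower in labelled RNA and 79.7% of those over 200 kb. The share of genes lower in total RNA went down with each class: 36.3% under 10 kb, then 28.9%, 22.1%, 14.9% and, over 200 kb, 9.38%. The median log2 changes of total RNA did not follow length step by step, at -0.18, -0.19, -0.19, -0.12 and -0.070. Median labelled shares in DMSO were 4.03% under 10 kb and 7.31% over 200 kb.

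**Figure D1:**
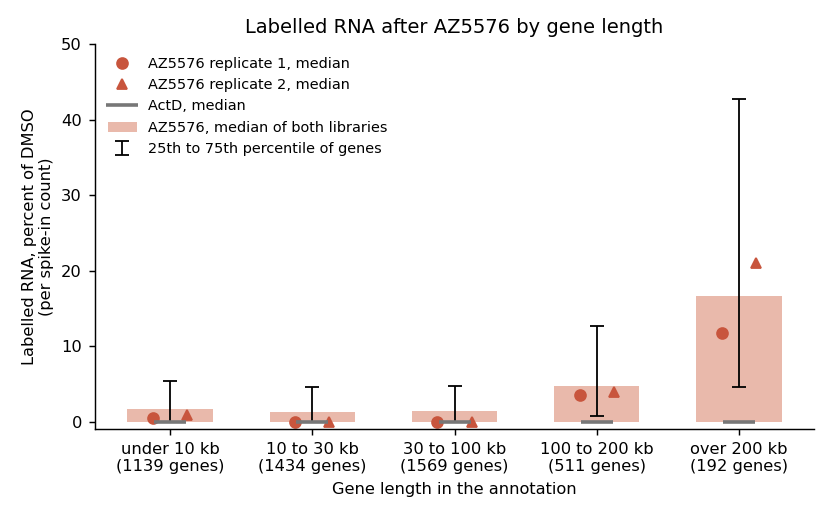
Labelled RNA with AZ-5576 as percent of DMSO (vertical axis, spike-in scale) for nuclear genes in 5 classes of annotated length (horizontal axis). Bars are medians, black lines the 25th to 75th percentile of genes, symbols the medians of each AZ5576 replicate and grey marks the ActD medians at 0; the bar over 200 kb stands at 16.6% and those under 100 kb at 1.34% to 1.65%.

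CUX1, a homeodomain transcription factor gene of 468 kb (chr7:101815904-102283958, plus strand), had 167 and 176 labelled counts in DMSO and 189 and 257 with AZ-5576, 123% of the DMSO level. Both AZ5576 libraries were above both DMSO libraries, but the difference did not pass the test (edgeR adjusted p = 0.16), and ActD left 0 and 0. PRKCB, a protein kinase C gene of 385 kb (chr16:23835946-24220611, plus strand), had 343 and 318 against 271 and 339 labelled counts, 87.9% of DMSO (edgeR adjusted p = 0.33). ANK1, the erythroid ankyrin gene of 244 kb, had 204 and 212 against 185 and 226, with overlapping groups and 94.1% of DMSO kept. The median gene of their length class kept 16.6%. These 3 genes were named because they were among those that kept the most label, so they stand above that median by choice. Of the 192 genes over 200 kb, 45 kept at least 50%.

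Other long genes lost part of their label. TAOK3, a kinase gene of 223 kb, had 180 and 192 labelled counts against 144 and 133 (71.5% of DMSO; edgeR adjusted p = 0.041), a call lost without DMSO replicate 1 (0.074), DMSO replicate 2 (0.20) or AZ5576 replicate 2 (0.17). CMIP (267 kb) kept 60.8%, with 255 and 194 against 149 and 134 counts (edgeR adjusted p = 0.0017, and 0.077 without DMSO replicate 1). ZMYND8, a chromatin reader gene of 148 kb, kept 51.9%, and SND1, a nuclease gene of 440 kb, kept 50.5%. On the TMM scale these genes, ANK1 and PRKCB were all higher with AZ-5576 in labelled RNA, so their direction depends on the scale. A rise on that scale is relative to the other labelled RNA. Labelled reads were 2.89% and 2.66% of human reads in the DMSO libraries and 0.359% and 0.353% in the AZ5576 libraries. That share does not use the spike-in. In total RNA, CUX1 went from 1477 and 1475 to 1704 and 2066 (log2 0.28 ± 0.10, edgeR adjusted p = 0.069), PRKCB from 18072 and 18440 to 19214 and 22303, and ANK1 from 4364 and 4522 to 4561 and 5482. None of these totals passed the test on the spike-in scale. On the TMM scale all 3 were called higher (edgeR adjusted p = 0.00063 for CUX1, 0.0046 for PRKCB and 0.020 for ANK1), and CUX1 was also called higher with scaling to the human total (0.0068) and by DESeq2 with spike-in size factors (0.041).

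Some shorter genes kept label as well. PPP1R18, an actin-binding phosphatase subunit gene of 11.5 kb, went from 166 and 157 to 63 and 95 labelled counts, 46.3% of DMSO. On the TMM scale its labelled RNA was higher. Of 22 cholesterol synthesis genes, 20 were lower in labelled RNA and 5 in total RNA (22.7%, median log2 -0.17), with 1 lower in total RNA on the TMM scale. Over all genes tested, 94.7% were lower in labelled and 12.9% in total RNA. Their summed label was 15.0% of DMSO.

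Some labelled counts did not exceed the ActD background. RPL31P49, a ribosomal protein pseudogene, had 196 and 192 labelled counts in DMSO and 156 and 191 with AZ-5576, but also 144 and 220 with ActD. RPL38, a ribosomal protein gene, had 345 and 360 against 116 and 165, with 142 and 163 in ActD. In both, the AZ5576 counts overlapped those of ActD, the background of the conversion calls. Ribosomal protein genes have many near-identical copies, so the source of these reads is uncertain. On the TMM scale the labelled RNA of both was higher.

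Mitochondrial transcripts, taken as a sum, and BCYRN1 kept most of their label. Mitochondrial genes and their nuclear copies gave 22.9 and 21.3 labelled counts per 1000 spike-in counts in DMSO and 16.6 and 16.4 with AZ-5576, 74.5% of DMSO, against 0.353% with ActD. All other genes gave 214 and 218 against 12.7 and 14, which is 6.19%. Of the mitochondrially encoded mRNAs, MT-CYB, a complex III subunit, had 4861 and 4812 against 3387 and 3810 labelled counts, and MT-ND1, a complex I subunit, 1191 and 922 against 828 and 835. MT-ND1 was called lower (edgeR adjusted p = 0.010), but not without DMSO replicate 1 (0.26) or AZ5576 replicate 2 (0.059). Of 11 mitochondrially encoded members tested, 6 were lower in labelled RNA on the spike-in scale, against 94.7% of all genes tested, and 10 higher on the TMM scale. MT-ND6 kept 30.1% of its DMSO label (25 and 35 against 9 and 10 counts). MT-ATP8 kept 19.6% (16 and 14 against 4 and 2). The other members tested kept between 61.6% and 110%. In total RNA edgeR called 0 of 12 in either direction on the spike-in scale. Over all genes tested, 12.9% were lower and 0.782% higher there. At an unadjusted p under 0.05 the count was 4 of the 12, and by DESeq2 with spike-in size factors 0. On the TMM scale 7 were higher. BCYRN1, a short neuronal RNA, was the only listed RNA polymerase III transcript with enough labelled counts for a test. It had 461 and 332 labelled counts against 269 and 271, 65.5% of DMSO (edgeR adjusted p = 0.0017, and 0.14 without DMSO replicate 1), and 0 and 0 with ActD. On the TMM scale the labelled RNA of MT-CYB, MT-ND1 and BCYRN1 was higher.

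CDK9's own partners were among the RNAs that fell. Of the 8 listed P-TEFb and 7SK genes, 7 were in the tables and tested in total RNA. Their median log2 change was -1.11, against -0.15 over all genes tested. In this list 4 were lower (57.1%), against 12.9% of all genes tested. The same number was lower on the TMM scale. CCNT1, which encodes cyclin T1 (chr12:48688458-48716998, minus strand), had 411 and 440 total counts in DMSO and 161 and 217 with AZ-5576. Its total RNA fell by 1.24 ± 0.16 on the log2 scale (edgeR adjusted p = 2.9e-07), and its labelled counts were 118 and 111 against 0 and 2. CCNT2, which encodes cyclin T2, had 176 and 123 total counts against 81 and 63, a fall of 1.11 ± 0.26 on the log2 scale (edgeR adjusted p = 0.0025). The 2 groups did not overlap for either cyclin. The call of CCNT2 was lost without DMSO replicate 1 (edgeR adjusted p = 0.086) or AZ5576 replicate 2 (0.084). CDK9 itself had 27 and 29 total counts against 19 and 19 and did not pass the test (edgeR adjusted p = 0.51), and its labelled counts were too few to test.

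The inhibitory arm of the same machinery changed by different amounts. MEPCE, the enzyme that caps 7SK RNA, had 852 and 682 total counts in DMSO and 316 and 382 with AZ-5576, a fall of 1.20 ± 0.19 on the log2 scale (edgeR adjusted p = 0.00015). Labelled reads made up 7.32% of its DMSO reads and went from 66 and 47 to 0 and 0. HEXIM1, which holds P-TEFb inactive on 7SK, had 833 and 952 against 540 and 645 total counts, a fall of 0.66 ± 0.13 on the log2 scale (edgeR adjusted p = 0.00026). Its labelled counts went from 47 and 90 to 0 and 0, at least 48.1-fold lower. LARP7, the 7SK-binding protein, had 982 and 942 against 721 and 885 total counts and did not pass the test (log2 -0.33 ± 0.12, edgeR adjusted p = 0.051; 0.039 by DESeq2 with spike-in size factors). HEXIM2 had 34 and 7 against 10 and 6 counts, too few to resolve. The 7SK RNA itself was not analysed here.

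The pausing factors did not pass the test in total RNA. NELF and DSIF have 6 genes on the list, and 0 were lower or higher in total RNA. Over all genes tested 12.9% were lower, and 6 genes are too few to tell 0 from that share. The median log2 change of the 6 was -0.04, and 0.11 on the TMM scale. At an unadjusted p under 0.05 the count was 1, and by DESeq2 with spike-in size factors 0. On the TMM scale 1, NELFE, was higher. NELFA had 1377 and 1608 total counts against 1149 and 1450 (log2 -0.27 ± 0.12, edgeR adjusted p = 0.13, and 0.044 without DMSO replicate 1). SUPT5H, the large DSIF subunit, had 2066 and 2271 against 2016 and 2744, with overlapping groups. All 5 of these genes tested in labelled RNA were lower there, as were 94.7% of all genes tested.

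**Figure D2:**
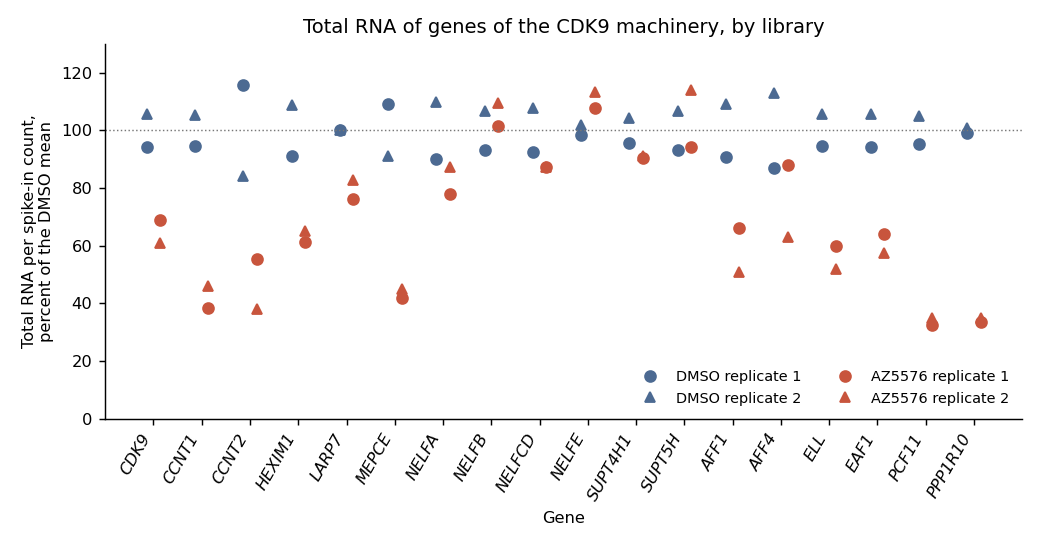
Total RNA per spike-in count in each library as percent of the DMSO mean (vertical axis) for 18 genes of the CDK9 machinery (horizontal axis); circles are replicate 1 and triangles replicate 2. The mean of the AZ5576 points is 42.2% for CCNT1, 43.4% for MEPCE, 33.7% for PCF11 and 34.2% for PPP1R10, and 106% for NELFB, 111% for NELFE and 104% for SUPT5H; on the TMM scale the falls of the first 4 keep their direction.

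Partners of P-TEFb in elongation changed in part. In the super elongation complex, which carries P-TEFb to chromatin, 3 of 8 genes tested were lower in total RNA, and 2 on the TMM scale. That is 37.5% on the spike-in scale, against 12.9% of all genes tested. ELL, an elongation factor, had 392 and 420 counts against 240 and 234 (log2 -0.84 ± 0.18, edgeR adjusted p = 0.00082), and its partner EAF1 425 and 457 against 279 and 282 (-0.72 ± 0.15, 0.00084). The scaffold AFF1 had 316 and 364 against 222 and 192 (-0.78 ± 0.22, 0.017), a call lost without DMSO replicate 2 (0.23) or AZ5576 replicate 2 (0.18). Its paralog AFF4, the other scaffold, had 263 and 327 against 256 and 207 and did not pass (edgeR adjusted p = 0.15). Of 10 genes of the PAF1 complex, SPT6 and FACT, the SPT6 partner IWS1 alone was called (-0.42 ± 0.14, 0.042), and not without DMSO replicate 2 (0.50), AZ5576 replicate 1 (0.32) or AZ5576 replicate 2 (0.062), nor on the TMM scale.

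Among 13 genes of other transcription kinases and their cyclins, 3 were lower (23.1%, against 12.9% of all genes tested), and 1 on the TMM scale. CDK7, the TFIIH kinase, had 237 and 281 total counts against 168 and 181 (log2 -0.64 ± 0.19, edgeR adjusted p = 0.016), and CDK12, an elongation kinase, 829 and 897 against 615 and 729 (-0.43 ± 0.12, 0.012). Both calls were lost in 3 of 4 fits that left out 1 library: those without DMSO replicate 2 (0.25 for CDK7 and 0.17 for CDK12), AZ5576 replicate 1 (0.079 and 0.13) or AZ5576 replicate 2 (0.11 and 0.053). Cyclin L1 and cyclin L2, both splicing-linked cyclins, are a contrasting pair. CCNL1 had 149 and 119 labelled counts against 2 and 2, and 390 and 407 total counts against 268 and 288 (-0.59 ± 0.14, 0.0038, and 0.057 without DMSO replicate 2 or 0.054 without AZ5576 replicate 2). CCNL2 had 96 and 102 labelled counts against 0 and 2, while its total counts overlapped, at 1611 and 1939 against 1631 and 2043. Labelled reads were 33.7% of CCNL1 reads in DMSO and 5.61% of CCNL2 reads; the difference between the 2 changes was not tested.

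Factors that end transcription included 2 of the larger falls in the machinery. Of 22 genes of Integrator, the PNUTS phosphatase and termination, 6 were lower in total RNA (median log2 -0.28), and 4 on the TMM scale. The 6 are 27.3%, against 12.9% of all genes tested. PCF11, a cleavage and termination factor, had 770 and 814 total counts in DMSO and 254 and 306 with AZ-5576, a fall of 1.57 ± 0.13 on the log2 scale (edgeR adjusted p = 1.1e-11). PPP1R10, which encodes PNUTS, the targeting subunit of a phosphatase that acts on the elongation complex, had 920 and 900 against 301 and 351, a fall of 1.55 ± 0.12 (9.8e-13). The 2 falls were of like size although labelled reads made up 27.0% of PCF11 reads in DMSO and 5.56% of PPP1R10 reads. INTS5 (-0.70), INTS6 (-0.76), WDR82 (-0.40) and the 5′-to-3′ exonuclease XRN2 (-0.62) were the other called members. INTS6 lost its call without DMSO replicate 2 (edgeR adjusted p = 0.065), and WDR82 and XRN2 lost theirs without DMSO replicate 2 (0.26 and 0.37), AZ5576 replicate 1 (0.076 and 0.27) or AZ5576 replicate 2 (0.16 and 0.057). BRD2, a BET protein that reads acetylated histones, had 4293 and 4203 total counts against 1649 and 2063 (log2 -1.27 ± 0.10, edgeR adjusted p = 6.5e-12). Of the 12 RNA polymerase II subunit genes, 0 were called in total RNA on the spike-in scale and 2 were higher on the TMM scale; at an unadjusted p under 0.05 the count was 1, and by DESeq2 with spike-in size factors 0.

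The share of labelled reads in DMSO was taken as a measure of how fast an RNA pool is renewed. When 10409 genes were ranked by this share and placed in 5 equal bins, the bin medians were 0.803%, 2.09%, 3.71%, 6.41% and 13.2%. Median log2 changes of total RNA went from 0.02 in the lowest bin through -0.05, -0.14 and -0.27 to -0.56 in the highest. The share of genes called lower rose from 0.720% through 2.16%, 8.51% and 21.4% to 46.3%. The order of the bins was the same on the TMM scale, with medians from 0.17 to -0.41, and so positive in the 3 lowest bins. Across genes, Spearman's rho between share and change was -0.57. Share and change use the same DMSO libraries, and with the share from DMSO replicate 1 and the change against DMSO replicate 2 it was -0.53, and -0.49 the other way round. Genes are not independent replicates.

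Exceptions lay on both sides. In the highest bin 1117 of 2082 genes were not called lower, and in the 2 lowest bins 60 of 4164 were. SNHG1, a host of small nucleolar RNAs, had a labelled share of 26.5% in DMSO, and its total counts overlapped, at 4997 and 5725 against 4852 and 5834. Promoter letters hardly differed between bins: TATAAA was found in 5.12% of the promoters of the lowest bin and 5.72% of the highest, CCAAT in 36.9% and 38.8%, and GGGCGG in 73.3% and 68.9%.

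**Figure D3:**
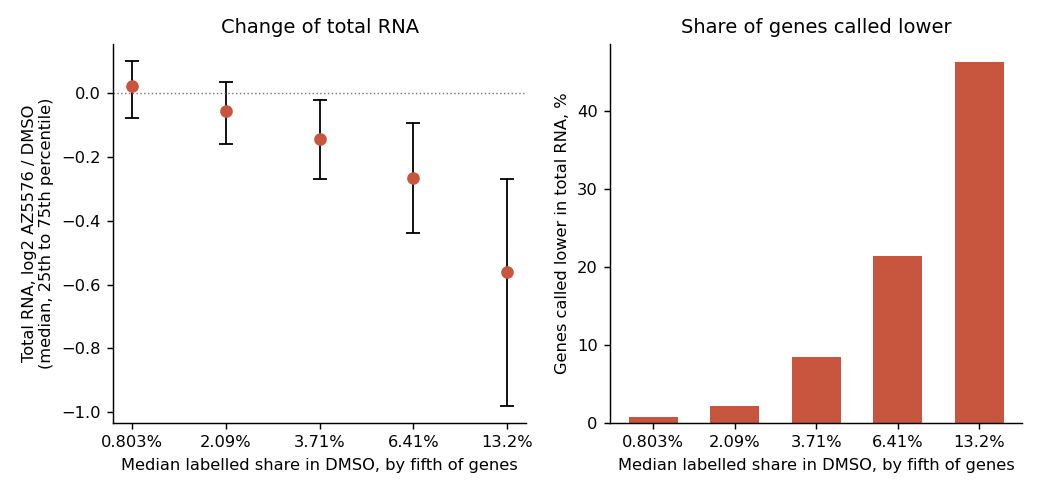
Median log2 change of total RNA with AZ-5576 (left, lines from the 25th to the 75th percentile of genes) and percent of genes called lower in total RNA (right) for 5 equal bins of genes. Bins are named on the horizontal axis by their median labelled share in DMSO, and the change goes from 0.02 at a share of 0.803% to -0.56 at 13.2% on the spike-in scale; on the TMM scale the 3 lowest bins are positive.

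The genes described next were among the 15 largest falls in total RNA where the DMSO libraries averaged 50 counts or more and the groups did not overlap; some genes with fewer counts had larger fitted falls. MIR17HG, the host of the miR-17 to miR-92 cluster (chr13:91347820-91354579, plus strand), had 800 and 838 total counts in DMSO and 33 and 63 with AZ-5576, a fall of 4.16 ± 0.18 on the log2 scale (edgeR adjusted p = 1.4e-19). CITED2, a coactivator that binds CBP and p300, had 173 and 168 against 7 and 16, a fall of 3.95 ± 0.37 (edgeR adjusted p = 2.1e-10), and 4.56 without AZ5576 replicate 2. MYLIP, a ubiquitin ligase, had 425 and 327 against 19 and 32, a fall of 3.94 ± 0.25 (edgeR adjusted p = 2.6e-15). Every AZ5576 library was below both DMSO libraries for these genes. HES1, a repressor downstream of Notch, had 179 and 183 against 24 and 8, a fall of 3.54 ± 0.38 (edgeR adjusted p = 7.3e-09) that was 4.63 without AZ5576 replicate 1 and 2.89 without AZ5576 replicate 2. A lincRNA without a symbol, ENSG00000264066, had 276 and 395 against 3 and 13. Labelled reads made up 57.5% of MIR17HG reads, 63.8% of MYLIP reads, 50.2% of HES1 reads and 22.0% of CITED2 reads in DMSO.

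Factors that promote mRNA decay fell as a group. All 8 genes of the ZFP36 family, whose proteins bind AU-rich elements, and of the BTG and TOB family, which recruit deadenylases, were lower in total RNA (median log2 -2.06, against -0.15 over all genes tested), on the TMM scale too. Their summed total RNA stood at 24.2% and 29.7% of DMSO in the AZ5576 replicates. ZFP36L2 had 816 and 781 total counts against 130 and 146 (log2 -2.60 ± 0.16, edgeR adjusted p = 2.7e-15) and 260 and 268 labelled counts against 0 and 4. ZFP36L1 had 380 and 439 against 89 and 153, BTG1 339 and 345 against 124 and 179, and BTG3 325 and 415 against 126 and 188. Of the 39 genes of the decay machinery itself, 7 were lower (17.9%, near the 12.9% of all genes tested; median log2 -0.22), and 4 on the TMM scale.

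Immediate early and AP-1 genes, which respond to growth signals within minutes, were mostly lower. Of 12 AP-1 factors tested, 10 were lower in total RNA (83.3%, median log2 -1.76), and 10 on the TMM scale. Of 13 immediate early and IER genes, 12 were lower (92.3%, -1.83), and 11 on the TMM scale. Over all genes tested, 12.9% were lower and the median log2 change was -0.15. JUN had 273 and 288 total counts against 45 and 72 (log2 -2.33 ± 0.23, edgeR adjusted p = 9.8e-10), and JUNB 589 and 642 against 118 and 179 (-2.13 ± 0.16, 2.2e-13). JUND, the most abundant of the family here, had 4134 and 4149 against 2147 and 2834 (-0.81 ± 0.11, 4.4e-07). The JUN genes thus ranged widely in their falls with no overlap between groups in any. IER3 had 964 and 913 against 125 and 192 (-2.64 ± 0.16, 7.1e-16), and IER5 1092 and 1035 against 232 and 289 (-2.10 ± 0.12, 7.1e-16).

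Feedback regulators of signalling were next. Of 8 genes of the ID factors and SMAD feedback, 5 were lower in total RNA (62.5%, median log2 -2.01), the same number as on the TMM scale. The other 3 (SMAD6, SKI and SKIL) did not pass. Over all genes tested, 12.9% were lower and the median log2 change was -0.15. ID1, ID2 and ID3, which block basic helix-loop-helix factors, had 836 and 802 against 202 and 213, 855 and 817 against 141 and 228, and 752 and 815 against 181 and 239. Their falls were 2.04, 2.26 and 1.97 on the log2 scale. Of 10 ERK feedback genes 7 were lower (median -1.15), and 6 on the TMM scale. SPRED1, an inhibitor of RAS signalling whose gene spans 105 kb, had 753 and 768 against 296 and 441 (-1.12 ± 0.14, edgeR adjusted p = 1.9e-07). PIM3, a survival kinase and STAT5 target, had 1793 and 1821 against 464 and 581 (-1.86 ± 0.11, 2.3e-15), although labelled reads made up only 8.04% of its DMSO reads. For NF-kB feedback and inflammation the count was 7 of 14, on the TMM scale too, and IRF2BP2, a transcriptional corepressor on that list, had 1046 and 1154 against 245 and 327 (-2.02 ± 0.14, 3.3e-14).

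Some genes of cell death and of stress were lower. In the BCL2 family 5 of 14 were lower (35.7%, against 12.9% of all genes tested), and 4 on the TMM scale. The survival factor MCL1 was called, whereas the survival gene BCL2L1 had 1478 and 1559 total counts against 1395 and 1641 and did not pass (edgeR adjusted p = 0.80). The other called members were the pro-death genes BBC3, with 591 and 867 total counts against 333 and 477 (log2 -0.93 ± 0.17, edgeR adjusted p = 0.00018), BCL2L11, with 238 and 206 against 121 and 141 (-0.83 ± 0.20, 0.0032), PMAIP1 (-1.36) and BAK1 (-0.59). Of 20 stress response and p53 target genes 13 were lower (median -0.88), on the TMM scale too. AEN, a p53-induced nuclease, had 1900 and 1926 against 943 and 1162 (-0.93 ± 0.11, 5.3e-08). Of 24 heat shock and chaperonin genes 2 were lower, on the TMM scale too: DNAJB1, an HSP40 cochaperone, had 1271 and 1267 against 431 and 434 (-1.62 ± 0.12, 4.2e-13), and HSF2, a heat shock factor, 613 and 640 against 382 and 450 (-0.66 ± 0.14, 0.00090).

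Zinc finger genes were the largest of the lists used here. Of 367 C2H2 genes named ZNF, most of which encode DNA-binding repressors, 152 were lower in total RNA and 0 higher. The 152 are 41.4%, against 12.9% of all genes tested, and the median log2 change was -0.71. On the TMM scale 106 were lower and 1 higher. On chromosome 19, where many of them lie in clusters, 70 of 165 were lower, and 82 of 202 on other chromosomes. Their median labelled shares in DMSO were 13.0% on chromosome 19 and 10.8% on other chromosomes. In the highest of the 5 bins of labelled share, 46.3% of genes were lower. ZNF3 had 1328 and 1466 against 563 and 702 (-1.21 ± 0.12, edgeR adjusted p = 8.9e-10). ZNF282 had 1409 and 1446 against 734 and 958 (-0.83 ± 0.12, 1.6e-06). ZNF627 had 172 and 151 against 4 and 23, a log2 change of -3.65 ± 0.37 that was -2.95 without AZ5576 replicate 1 and -5.27 without AZ5576 replicate 2. Reads of such related genes can be shared between copies, so single members are uncertain.

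More of the erythroid transcription factors than of the globin, heme and membrane genes passed the test; the difference was not tested. Of 18 erythroid transcription factors, 10 were lower in total RNA (55.6%, median log2 -0.48), and 8 on the TMM scale. Over all genes tested, 12.9% were lower and the median log2 change was -0.15. GATA1, the main erythroid factor, had 2879 and 3169 total counts against 2659 and 3063 (-0.15 ± 0.10, edgeR adjusted p = 0.41), and MYB 2526 and 2561 against 2160 and 2472 (-0.20 ± 0.10, 0.21). Labelled reads made up 1.42% of GATA1 reads and 4.01% of MYB reads in DMSO. HBG1, a fetal globin nearly identical to HBG2, had 808 and 823 labelled counts against 15 and 11, and 26080 and 29526 total counts against 26656 and 33364. Of 31 globin, heme and erythroid membrane genes, 2 were lower in total RNA (ALAS1 and SLC25A38) and 1 higher (HBB); on the TMM scale 2 were lower and 6 higher.

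Host transcripts of small nucleolar RNAs and splicing genes were lower in part. Of 22 snoRNA host transcripts 13 were lower in total RNA (median log2 -0.44), and 10 on the TMM scale. TAF1D, a subunit of an RNA polymerase I factor that also hosts snoRNAs, had 1216 and 1159 labelled counts against 72 and 70, and 3508 and 3673 total counts against 1106 and 1454 (-1.56 ± 0.11, edgeR adjusted p = 4.3e-14). SNHG3 had 14962 and 16878 total counts against 9966 and 12744 (-0.56 ± 0.10, 6.5e-05), and SNHG25 4807 and 4753 against 2865 and 3551 (-0.65 ± 0.10, 1.5e-05). Of 16 SRSF and CLK splicing genes 7 were lower, and 5 on the TMM scale. TXNIP, a glucose-responsive inhibitor of glucose uptake, had 790 and 797 against 372 and 427 (-1.06 ± 0.14, 4.7e-07). CDKN1B, which encodes the cell cycle inhibitor p27, had 233 and 213 against 103 and 110 (-1.13 ± 0.23, 0.00031) and was 1 of 2 lower among 13 G1 cyclins, CDKs and CDK inhibitors, the same number as on the TMM scale. Among the other lists, 5 of 9 KLF factors, 4 of 8 STAT5 and cytokine feedback genes, 3 of 14 long noncoding RNAs and 9 of 78 mitochondrial ribosomal protein genes were lower, and on the TMM scale 5, 4, 3 and 5. Over all genes tested 12.9% were lower, and the shares of the mitochondrial ribosomal protein genes (11.5%), the G1 list (15.4%), the heat shock list (8.33%) and the PAF1, SPT6 and FACT list (10%) were near or below this background.

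Abundant housekeeping messages lost label but seldom passed the test in total RNA, where 12.9% of all genes tested were lower. Of 79 cytosolic ribosomal protein genes tested, 0 were called on the spike-in scale (median log2 0.04) and 34 were higher on the TMM scale; at an unadjusted p under 0.05 the count was 0, and by DESeq2 with spike-in size factors 0. Their summed label was 8.33% and 8.82% of DMSO in the AZ5576 replicates. RPL32 had 97218 and 104370 total counts against 101990 and 127354. Glycolysis had 0 of 19 called (3 at an unadjusted p under 0.05, and 0 by DESeq2 with spike-in size factors; 1 higher on the TMM scale), the proteasome 1 of 31 lower and the nuclear-encoded respiratory chain 1 of 79 lower, with 4 and 16 genes higher on the TMM scale and 0 lower. Labelled reads were 0.792% of the ribosomal protein reads in DMSO, 1.48% for glycolysis and 1.72% for the proteasome.

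**Figure D4:**
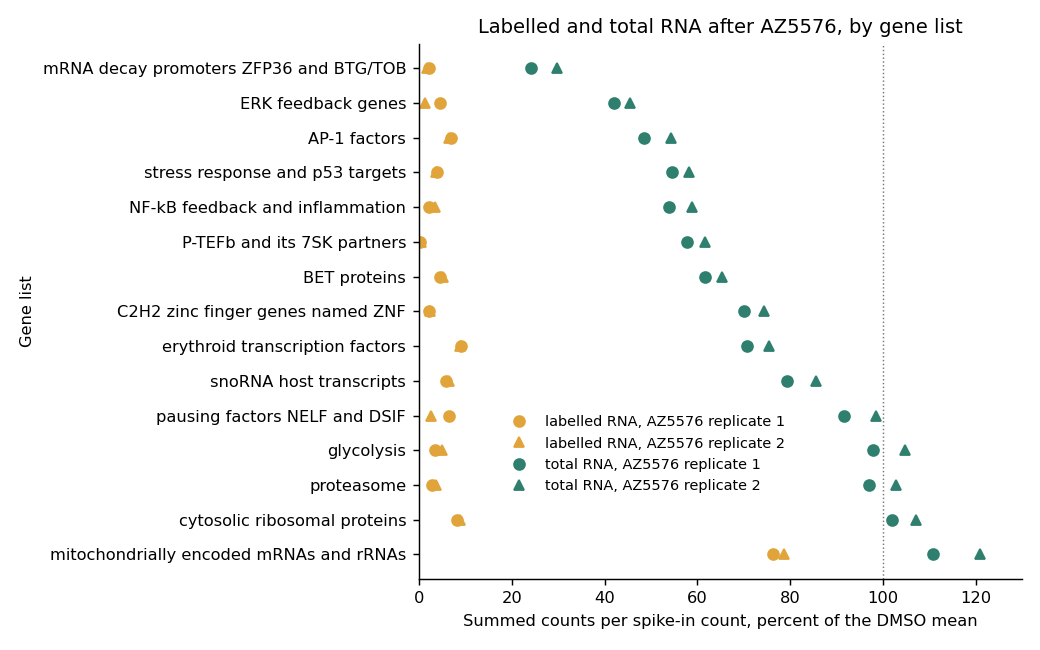
Summed labelled (yellow) and total (green) counts per spike-in count with AZ-5576, as percent of the DMSO mean (horizontal axis), for 15 gene lists (vertical axis); circles are replicate 1 and triangles replicate 2. Labelled RNA lies at 8.99% or less in all lists shown except the mitochondrially encoded one (76.2% and 78.7%), while total RNA ranges from 24.2% for the decay promoters to 121% for the mitochondrially encoded genes on the spike-in scale.

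Few RNAs rose, and many of those were from genes nearly silent in DMSO. Of the 16 labelled rises, 12 were also higher in total RNA. PFN1P2, a profilin pseudogene, had 2 and 1 labelled counts in DMSO and 57 and 48 with AZ-5576, and its total counts went from 3 and 5 to 138 and 136 (log2 5.00 ± 0.54, edgeR adjusted p = 5.1e-09). RNU6-918P, a U6 pseudogene, had 0 and 0 labelled counts against 36 and 14, at least 16.4-fold higher over the floor of 3 counts. RNVU1-25, a variant U1 small nuclear RNA, had 0 and 0 against 28 and 20, at least 15.5-fold higher. The groups did not overlap for any of these, and ActD had 0 labelled counts of each. Their labelled DMSO counts were below the 10 counts in 2 libraries needed for a test, so other libraries brought them into it. Genes so low in DMSO could be found higher but hardly lower, so the lack of overlap is partly set by that filter. With at least 30 counts in 2 libraries, 1 of 3982 genes tested was higher in labelled RNA. U1 and U6 genes have many near-identical copies, so the copy of origin is uncertain. Which form of these small RNAs the 3′ libraries read was not tested.

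Some protein-coding genes with few counts in DMSO were among the rises. DCN, a connective tissue proteoglycan, had 0 and 0 labelled counts against 9 and 11, at least 6.35-fold higher, and 1 and 1 total counts against 25 and 15. CCDC80, an extracellular matrix protein, had 1 and 1 labelled counts against 14 and 12 and 6 and 13 total counts against 48 and 61. HBB, the adult beta-globin, had 4 and 4 total counts against 35 and 21 (log2 2.73 ± 0.83, edgeR adjusted p = 0.021), with 0 and 0 against 9 and 5 labelled. All of these counts are small, although no library of one group overlapped the other. The labelled DMSO counts of DCN, CCDC80 and HBB, and the total DMSO counts of DCN and HBB, were again below those needed for a test. The lack of overlap is thus partly set by the filter here too. Leaving out a library ended the calls in total RNA: for DCN without DMSO replicate 1 (0.077), DMSO replicate 2 (0.10) or AZ5576 replicate 1 (0.085), and for HBB without DMSO replicate 1 (0.13), DMSO replicate 2 (0.17) or AZ5576 replicate 1 (0.20). CCDC80 lost its call without DMSO replicate 1 in total RNA (0.076), and without DMSO replicate 1 (0.059) or DMSO replicate 2 (0.054) in labelled RNA. LGALS9, a galectin, had 5 and 7 labelled counts against 25 and 35 and 236 and 244 total counts against 319 and 414 (0.54 ± 0.17, 0.027), the latter not called without DMSO replicate 1 (0.14), DMSO replicate 2 (0.098) or AZ5576 replicate 2 (0.24).

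The 114 rises in total RNA were of mixed type. They comprised 53 protein-coding genes, 24 pseudogenes, 9 lincRNAs, 9 antisense genes, 4 small nuclear and 4 small nucleolar RNAs and 11 of other types, and 12 of the pseudogenes were named for ribosomal proteins. Antisense genes cannot be told from their partners here, since the use of strand in counting is not given in the sources used here. SCARNA9, a guide RNA of Cajal bodies, had 106 and 105 total counts against 425 and 467 (log2 2.01 ± 0.18, edgeR adjusted p = 6.7e-11) and no labelled count in these 4 libraries. The libraries were made by a 3′ method, and which form of SCARNA9 its counts come from was not tested. Only 40 of the 114 had enough labelled counts for a test in that table.

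A small set moved in opposite directions in the 2 tables. Of the 40 rises in total RNA that were also tested in labelled RNA, 13 were lower there and 12 higher. Over all genes tested, 94.7% were lower in labelled RNA, so a lower label alone does not set these 13 apart. RPL34P6, a pseudogene of the ribosomal protein gene RPL34, had 17 and 12 labelled counts against 0 and 2 and 136 and 103 total counts against 981 and 1075 (log2 3.04 ± 0.14, edgeR adjusted p = 8.2e-19). RPL31P2, a pseudogene of RPL31, had 20 and 13 against 0 and 0 labelled and 790 and 879 against 2661 and 3368 total counts (1.78 ± 0.11, 5.4e-15). RPS3P1, tested in total RNA only, showed a like rise there, from 350 and 261 to 1695 and 2033. Reads of such copies can come from their parent genes, so these 3 are uncertain. Outside the pseudogenes, CBS, an enzyme of sulfur amino acid metabolism, had 8 and 15 labelled counts against 0 and 0 and 259 and 300 total counts against 408 and 518 (0.66 ± 0.17, 0.0064), a call lost without DMSO replicate 1 (0.12) or AZ5576 replicate 2 (0.079).

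**Figure D5:**
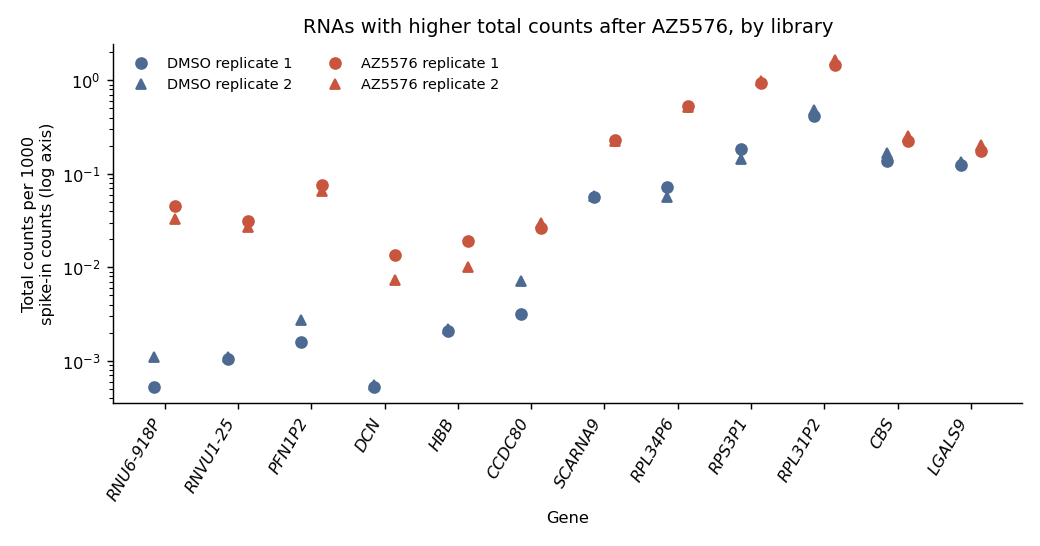
Total counts per 1000 spike-in counts (vertical log axis) in each library for 12 RNAs with higher total counts after AZ-5576 (horizontal axis); blue marks DMSO, red AZ5576, circles replicate 1 and triangles replicate 2. The AZ5576 points lie above the DMSO points in all 12, widely apart for RNU6-918P, RNVU1-25 and PFN1P2 and close together for CBS and LGALS9.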

How the data were processed

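Per the file headers, the deposited tables hold whole-number counts per gene, in 1 table for every human read, in 1 for human reads holding T-to-C conversions and in 1 for the Drosophila spike-in, none normalized. Per the labels' protocols, 5% S2 RNA was added to cleaned-up RNA before QuantSeq 3′ library preparation. Per the submitters' processing notes, bedtools, Trim Galore 0.6.5 and bcl2fastq 2.17.1.14 were used with builds hg38 and dm6. Not given in the sources used here are the aligner, the conversion caller and the strand setting.

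The robust two-sided quasi-likelihood test of edgeR 4.0.16 under R 4.3.3 took each spike-in total as the library size, 1 term for each of 5 groups over all 10 libraries, and genes of at least 10 counts in at least 2 libraries. edgeR's common biological coefficient of variation came to 24.8% for labelled and 10.9% for total RNA, with 5 residual degrees of freedom. Adjusted p-values are Benjamini-Hochberg over all genes tested in a table, and a bare p beside a gene is of the same kind. A permutation of 2 libraries against 2 cannot give a two-sided p below 0.33, so library-wide values carry no test. A group at 0 was set at a floor of 3 counts, which allows for counting error alone, because reads that carry no molecular identifier cannot be taken as separate molecules. Labelled percentages that rest on few AZ5576 counts shift by more than 1.5 times when either AZ5576 library is left out, as the paired counts show.

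Symbols and positions came from GENCODE 29 (55838 of 59204 genes) and promoters from RefSeq GRCh38.p14. Members, lists and tests were chosen with earlier results of these data known. Genes were named by a rule: all P-TEFb, pausing, elongation and kinase genes; up to 4 called members of each other list with the highest counts; the 15 largest changes of each table with at least 50 counts; the 15 nuclear genes of at least 100 labelled counts that kept most label; up to 10 genes lower in labelled and higher in total RNA; and a small panel. XRN2, PMAIP1, SMAD6, SKIL and BCL2L1 were added after their values were seen, to complete or qualify a count. Some genes that the rule names are not reported here. The fits were tested on simulated counts. Alternatives were TMM and human-total scaling, DESeq2 1.42.0, other filters, a fit on the 4 libraries, the replicate block and leaving out each library.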

Additional observations from a re-analysis of the deposited data

How the results depend on the processing

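Of the labelled genes tested, 26.1% were lower and 6.07% higher with TMM, 44.2% and 4.40% with scaling to the human total, 22.0% and 7.29% with DESeq2's median-ratio factors, and 50.6% and 0.127% with no filter beyond 1 count, where 17333 genes were tested. With at least 30 counts, where 3982 genes were tested, 0.0251% were higher. In total RNA the lower and higher genes numbered 1210 and 546 with TMM and 1092 and 557 with DESeq2's median-ratio factors. Leaving out 1 library gave 91.6% to 92.2% and 0.0627% to 0.145% in labelled RNA, and 903 to 1626 and 44 to 68 in total RNA. The scalings by human reads reversed labelled log2 changes of genes that kept label, in the order ANK1, PRKCB, TAOK3, CMIP, ZMYND8, SND1, PPP1R18, BCYRN1, RPL38, RPL31P49, MT-CYB and MT-ND1: 3.49, 3.39, 3.09, 2.85, 2.63, 2.59, 2.46, 2.96, 2.17, 3.34, 3.08 and 3.17 with TMM, 2.91, 2.81, 2.51, 2.27, 2.05, 2.01, 1.89, 2.38, 1.59, 2.76, 2.50 and 2.59 with the human total, and 3.55, 3.45, 3.15, 2.91, 2.69, 2.65, 2.53, 3.02, 2.23, 3.40, 3.14 and 3.23 with DESeq2's median-ratio factors. These scalings set the bulk of human reads equal by construction.

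Label kept by genes under 10 kb, of 10 to 30, 30 to 100 and 100 to 200 kb was 2.24%, 2.04%, 2.18% and 5.46% with at least 50 labelled counts. With protein-coding genes alone the first 3 were 1.29%, 1.29% and 1.35%, and without overlapping genes the last 3 were 1.15%, 1.33% and 4.04%. Without 1 library the 5 length classes gave 0.463% to 1.59%, 0% to 1.36%, 0% to 1.38%, 3.57% to 5.11% and 11.7% to 21%. Genes over 200 kb stayed highest in each of these settings. Bin medians of total RNA change, from low to high labelled share, were 0.17, 0.10, 0.0086, -0.11 and -0.41 with TMM. They were -0.035, -0.11, -0.21, -0.33 and -0.62 with the share from DMSO replicate 1 and the change against DMSO replicate 2, and 0.077, 0.026, -0.065, -0.17 and -0.47 the other way round. The highest bin gave -0.44 with at least 200 total counts. Without 1 library they ran from -0.030 to 0.079, -0.12 to 0.023, -0.21 to -0.064, -0.34 to -0.18 and -0.64 to -0.49, and the order of the bins held in each of these settings. Labelled RNA of all genes ran from 12.3% to 12.8% of DMSO and of nuclear genes from 5.88% to 6.49%, and total RNA from 93.3% to 102% and 92.2% to 102%.

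The replicate block gave 7544 lower and 13 higher genes in labelled and 2253 and 158 in total RNA. Deviations of same-numbered AZ5576 and DMSO libraries from their group means correlated at 0.0202 in labelled and 0.0347 in total RNA. Over the 10 pairs of groups these correlations ran from -0.0070 to 0.046 and from -0.038 to 0.169. With 2 libraries per group, such values cannot show whether the numbers pair the libraries. With the block LARP7, NELFA, CUX1 and TIMM23 were called in total RNA (adjusted p = 0.018, 0.025, 0.014 and 0.0047), and it ended no call of a named gene. The AZ5576 depth in labelled RNA, 53503 and 62513 counts, limits what can be said of single genes there.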
